A study of Mus musculus with 24 samples.

Results

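The mRNAs that oligodendrocytes (OLs) were translating 42 days after a spinal cord contusion were compared with all mRNAs of the same tissue. Members were chosen by library: 3 libraries of RNA from HA-tagged OL ribosomes and 3 of total RNA, all from dpi 42, were taken from the 24 libraries of the series, and all 17167 genes counted 10 times or more over the 24 libraries were compared. The mice carried a tamoxifen-inducible Cre that is active in mature OLs and the Rpl22-HA allele (rpl22HA in the labels). They were females, all treated with tamoxifen, aged 10 to 12 weeks in the labels when the T9 contusion of 50 kdyn was made. Naive mice had the same alleles and tamoxifen but no injury. Each of 3 dpi 42 tissue pools held spinal cord segments around the lesion from 2 mice, and each pool gave 1 OL and 1 total library. Where naive, dpi 2 or dpi 10 values are set beside those of dpi 42, they come from 3 OL and 3 total libraries made in the same way.

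OLs make the myelin of the central nervous system, a stack of lipid-rich membrane that needs large amounts of a few membrane proteins, cholesterol and sphingolipids. A ribosome that carries an HA tag only where Cre was active can be pulled from a lysate together with the mRNAs it translates, so an mRNA used mainly by OLs is richer in the pulled-down RNA (OL) than in the lysate (total RNA), and an mRNA of other cells is poorer. Cre of this kind also recombines in the Schwann cells of peripheral nerve, which make peripheral myelin. The pull-down retains some RNA of cells without the tag. In bulk RNA of this kind, fewer cells of a type and less RNA per cell cannot be told apart.

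OL enrichment is the log2 ratio of OL to total RNA in CPM (read counts scaled to a common library size) after TMM scaling. An mRNA is called enriched at log2 over 0.5 and depleted at log2 under -0.5, both with q under 0.05 (edgeR quasi-likelihood test, Benjamini-Hochberg adjustment over the 17167 genes). Changes from naive and differences in enrichment are called by the same limits. Errors are standard errors of the fit, or SD over n = 3 libraries where named. Values of single libraries are given in CPM in the order of pools 1, 2 and 3.

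Counts on genes ran from 28459123 to 29050061 in the total libraries and from 30851292 to 32987841 in the OL libraries of dpi 42. The GEO titles, source names and tissue labels of both pool 1 libraries name the other RNA kind than their descriptions and count columns. Their marker mRNAs go with the columns: Mag, an adhesion protein of myelin, was at 7206, 7435 and 8844 CPM in the 3 columns named as OL and at 925, 919 and 792 CPM in those named as total RNA. Enrichment counts without both pool 1 libraries were 3556 enriched and 4201 depleted mRNAs. The OL library of pool 3 stood apart from the other two. Of 8930 mRNAs with a mean over 10 CPM in OL, 462 were at less than 0.5 times both other libraries in pool 3, against 27 in pool 1 and 7 in pool 2. The naive OL library of pool 3 stood apart in the opposite direction, with 430 of 8705 mRNAs at more than 2 times both others. Serpina3n, an injury mRNA, stayed with the time labels in both. It was at 1752, 1817 and 2099 CPM in dpi 42 OL and at 86.4, 47.2 and 44.9 CPM in naive OL. The 14 phagocyte markers summed to 14348, 11532 and 6509 CPM in dpi 42 OL and to 925, 1135 and 4867 CPM in naive OL. In this sum, most of which was Apoe on dpi 42, the pool 3 library of each group lay toward the other group, without overlap. On dpi 42 pool 3 was the lowest OL library in only 2 of the 14 markers, so the sum does not stand for the list. Without the pool 3 OL libraries of dpi 42 and naive, 3495 mRNAs were enriched and 4559 depleted on dpi 42. In the total library of pool 1, neuron and peripheral myelin mRNAs were above the other two pools: 16 neuron markers summed to 11946, 7981 and 7359.8 CPM in the 3 total libraries.

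On dpi 42, 3621 mRNAs were enriched in OL and 4635 were depleted, which is 21.1% and 27.0% of the genes tested. Of these, 377 (2.2%) had log2 over 2 and 2824 (16.5%) log2 under -2, so strong depletion was more frequent than strong enrichment. The median over all genes was -0.18. In 3508 of the enriched and 4424 of the depleted mRNAs the 3 OL libraries did not overlap with the 3 total libraries; of all genes tested, 25.6% lay entirely above and 32.7% entirely below. With library sizes alone as scaling the median moved by -0.50 and the split became 1688 enriched to 6887 depleted (19.7% enriched in place of 43.9%). With that scaling the ratios of Agt, Ctsa, Epb41l3, Gfap, Ptgds, Steap3, Uchl1 and Zfp488 change sign, and Cd9, Cdh19, Cox4i1, Cyp51, Fxyd7, Omg, Scap, Scd1, Sdhc, Sqle, Srebf2 and Tfrc, all described as enriched below, do not pass the call. DESeq2 size factors turned the sign of Ctsa, Steap3 and Uchl1. Among the highly depleted mRNAs, 665 had at most 3 counts in every OL library, so their fitted ratios depend on the prior of the fit.

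Among the 10 mRNAs with the smallest p of those over log2 of 2 were Cd82, Taldo1, Wscd1, Csrp1, Esr1, Gpr62, S1pr5, Mag and Pllp. Cd82, a tetraspanin, was at 642, 614 and 643 CPM in OL and 102, 94 and 93.6 CPM in total RNA, an enrichment of 2.71 ± 0.095 (q = 3.4e-14). Gpr62, an orphan G protein-coupled receptor, was at 398, 389.8 and 418 CPM in OL and 43.7, 43.3 and 39.5 CPM in total RNA (3.25 ± 0.13, q = 9.2e-14, 9.53-fold). In these 2 genes each OL library was at least 6 times as high as any total library. S1pr5, the sphingosine 1-phosphate receptor of OLs, was at 595, 571 and 635 against 69.9, 78.2 and 70.1 CPM (3.05 ± 0.12). Taldo1, the transaldolase of the pentose phosphate pathway, was at 879, 889 and 931 against 159, 157 and 145 CPM (2.55 ± 0.092). Esr1, the estrogen receptor alpha, was at 387, 435 and 452 against 70.5, 73.4 and 57.2 CPM (2.66 ± 0.10). These mRNAs span myelin proteins, receptors and a metabolic enzyme. None of the 10 differed in enrichment from naive tissue by the call.

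Among the 10 most depleted mRNAs by the same rule were Prkar1b, Vgf, Esyt1, Atp1b1, Sez6l, Snap91 and Pcsk2. Several have known neuronal roles: Snap91 encodes a clathrin assembly protein of synapses, Pcsk2 a convertase of neuropeptide precursors and Vgf such a precursor. Snap91 was at 14.2, 19 and 13 CPM in OL and 215, 177 and 159.9 CPM in total RNA (-3.58 ± 0.16, q = 2.3e-13). Vgf was at 7.86, 8.85 and 9.16 against 197, 229.9 and 192 CPM (-4.58 ± 0.18). In both, each OL library was far below each total library.

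By level per kb of exon, the 10 most abundant mRNAs in OL included Apod, Mbp, Tubb4a, Apoe, Aplp1, Glul, S100b, Klk6 and Cnp. Apod, a lipid-binding lipocalin, stood at 7228 ± 425 CPM per kb (SD, n = 3) and Mbp, myelin basic protein, at 7157 ± 1004, which is within the spread of the libraries. Tubb4a, the tubulin of myelinating cells, stood at 4853 ± 863 CPM per kb. Of the 10, 9 were enriched, from 2.04 for S100b to 3.78 for Klk6, a serine protease of OLs. Apoe, the main lipid carrier made by astrocytes and phagocytes, was not: it was at 13788, 11078 and 5981 CPM in OL and 12853, 17932 and 18508 CPM in total RNA (-0.68 ± 0.43, q = 0.2), and its OL level in pool 3 was the lowest of the 3.

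**Figure D1:**
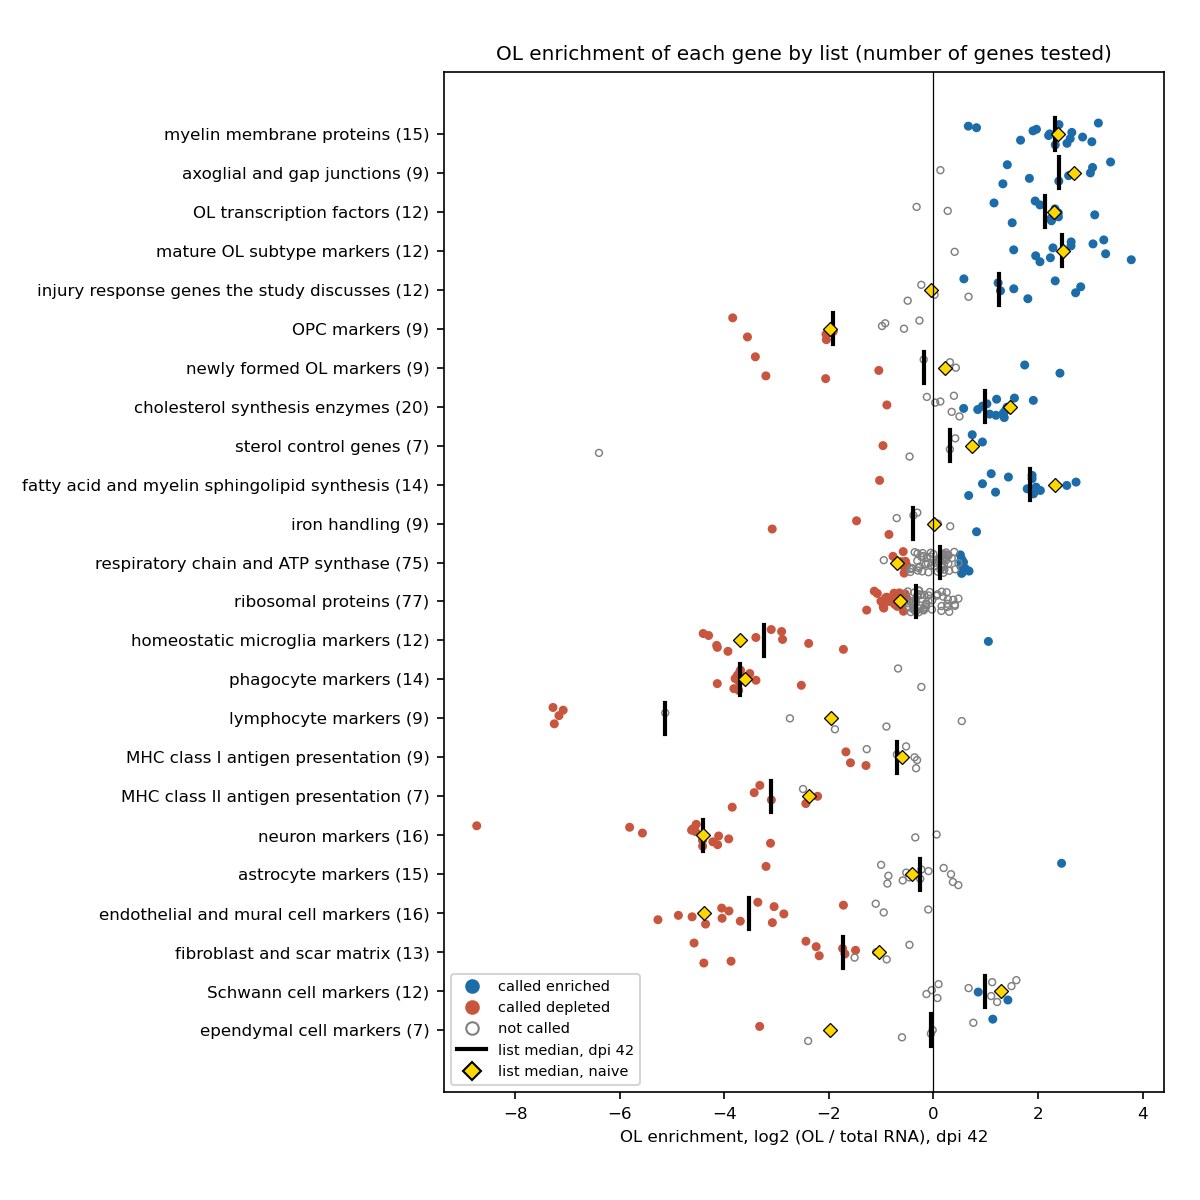
Each point is a gene; the horizontal axis is OL enrichment on dpi 42 (log2 of OL over total RNA), the rows are gene lists with the number of genes tested, filled points passed the call, black bars are list medians on dpi 42 and diamonds list medians in naive tissue. The 5 lists at the top have positive medians, from 1.26 to 2.46, while the neuron, microglia, phagocyte and endothelial lists lie between -4.41 and -3.25.

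All 15 genes of the myelin membrane list were enriched, with a median of 2.33. The background share of enriched mRNAs is 21.1%. Their summed level was 120491, 132173 and 156327 CPM in OL and 27164, 26099 and 24489 CPM in total RNA. Mbp was at 53482, 58339 and 70021 against 12529, 12164 and 11445 CPM, an enrichment of 2.33 ± 0.13. Mog (chr17:37010743-37023398, GRCm38), a surface protein of the outermost lamella, was at 1187, 1161 and 1292 against 214, 199.7 and 179.9 CPM (2.62 ± 0.11). The OL and total libraries do not overlap in any of the 15 genes. Enrichment was lowest in Cd9 and Omg. Cd9, a tetraspanin that microglia and other cells express too, was at 597, 598 and 599 CPM in OL and 359.9, 374 and 396 CPM in total RNA (0.67 ± 0.11, q = 2.5e-05), and it is the only myelin gene whose enrichment differed from naive by the call, by -0.89 (q = 0.0013). Total RNA of Cd9 rose by 2.36 from naive and OL by 1.47. Without the pool 3 OL libraries of dpi 42 and naive, 8 of the 15 genes had lower enrichment than in naive tissue, in place of 1. Over all genes that setting gave 2008 lower in place of 573 and moved the median by -0.17.

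Of 9 genes for axon contact and gap junctions, 8 were enriched, with a median of 2.40. Gjb1, connexin 32, was at 916, 937 and 1152 against 126, 128 and 109.9 CPM (3.04 ± 0.14). Hapln2, a link protein of the node of Ranvier, was at 788, 699 and 943 against 110.5, 97.3 and 95.5 CPM (3.00 ± 0.15). Both are far apart between OL and total RNA. Nfasc, whose isoforms sit on the axonal and the glial side of the node, had a lower ratio of 1.33 ± 0.10. Epb41l3, a scaffold protein also used by neurons, was at 406, 411 and 548 and 502, 369 and 372 CPM, and the groups overlap (0.13 ± 0.16, q = 0.49).

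Of 12 OL transcription factors, 10 were enriched and none was depleted, with a median of 2.14. Nkx6-2, a homeobox factor of the OL lineage, was at 448, 423 and 594 against 59, 51.8 and 61.6 CPM and had the highest ratio (3.09 ± 0.16). Myrf, the regulator of myelin genes, was at 1139.7, 1273 and 1539 against 248, 263 and 242 CPM (2.39 ± 0.13), and Sox10, its upstream partner, at 698, 815 and 1031 against 168, 191 and 173 CPM (2.26 ± 0.14). OL levels of Myrf, Sox10 and Olig2 were highest in pool 3. Tcf7l2 and Zfp488, which act in differentiating OLs, did not pass the call. Tcf7l2 was at 6.96, 10.6 and 6.42 in OL and 12.1, 8.87 and 8.97 CPM in total RNA (-0.32 ± 0.25, q = 0.29), with overlapping groups, while its naive enrichment was 1.41. The difference of -1.73 passed the call (q = 0.0048), as did those of Sox10 at -0.69 and Zeb2 at -0.91. That of Sox10 did not pass without the total library of pool 2 or 3 or the naive total library of pool 3 (q from 0.055 to 0.088). The count of 3 factors with lower enrichment became 5 with the tissue pool as a block. It was 7 without the dpi 42 OL library of pool 3, with or without that of naive tissue. Over all genes 573 were lower with the block, 1488 without that dpi 42 library and 2008 without both.

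Of 12 markers of mature OL subtypes, 11 were enriched, with a median of 2.46. Klk6 had 3665, 3255 and 4557 CPM in OL and 265, 286 and 282 CPM in total RNA (3.78 ± 0.27), the highest ratio of all genes on the OL lists. Trf, transferrin, was at 1592, 1885 and 2042 against 228, 247 and 190.1 CPM (3.05 ± 0.13), and Il33, an alarmin of the interleukin 1 family, at 886, 772 and 817 against 186, 173 and 148 CPM (2.29 ± 0.17). Ptgds, a prostaglandin D synthase that meningeal cells also make, did not pass, although its libraries do not overlap. It was at 2463, 2362 and 2259 in OL and 1331, 1979 and 2034 CPM in total RNA (0.41 ± 0.22, q = 0.13), against an enrichment of 2.59 in naive tissue. Its OL level did not pass the call against naive (-0.18, q = 0.6) and its total RNA rose by 2.01 (q = 2.1e-06).

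OPCs are the precursor cells from which OLs form. None of 9 OPC markers was enriched and 5 were depleted, with a median of -1.92 (27.0% of all genes are depleted). Pdgfra, the growth factor receptor that defines OPCs, was at 3.22, 4.7 and 2.7 CPM in OL and 44.2, 51.1 and 56.8 CPM in total RNA (-3.84 ± 0.39, q = 3.6e-08). Vcan, versican, was at 2.94, 4.55 and 0.391 against 28.9, 28.5 and 35.8 CPM (-3.56 ± 0.50). Pdgfra and Vcan do not overlap between the groups. C1ql1 was at 36.2, 36.8 and 9.63 in OL and 31.6, 47.4 and 43.1 CPM in total RNA (-0.56 ± 0.46, q = 0.31), and Matn4 was not depleted either. In all 9 genes the OL library of pool 3 was the lowest, and in 6 it was under 0.5 times both others. With the tissue pool as a block 7 of the 9 were depleted, and without the OL library of pool 3 there were 4.

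The list of newly formed OL markers was split. Enpp6, a choline phosphodiesterase, was at 266, 272 and 343 against 48.5, 51 and 65.1 CPM (2.42 ± 0.17, q = 1.9e-10) and Bcas1 at 1699, 2073 and 2290.2 against 608, 628 and 571 CPM (1.75 ± 0.11). Gpr17, a receptor of committed precursors, went the other way, at 14.4, 8.92 and 15.5 in OL and 116, 147 and 148 CPM in total RNA (-3.40 ± 0.36, q = 5.3e-08). Bmp4, Neu4 and Itpr2 were also depleted. Thus 2 of 9 genes were enriched (22.2%, against 21.1% of all genes) and 4 depleted (44.4%, against 27.0%). The list median of -0.19 was near the -0.18 of all genes. Itpr2 did not pass without the OL library of pool 3 (-0.81) or the total library of pool 3 (-0.76). Bcas1 and Enpp6 were thus on the side of the myelin genes, and Gpr17 and Bmp4 on that of Pdgfra.

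The astrocyte markers show how strongly the OL libraries differed among themselves. Of 15 markers, 13 did not pass the call, with a list median of -0.25 that turns to 0.047 without the OL library of pool 3. Gfap, the intermediate filament of reactive astrocytes, was at 9632, 7551 and 1407 CPM in OL and 3503, 5082 and 4770.3 CPM in total RNA (0.48 ± 0.67, q = 0.58). Aqp4, the water channel of astrocyte endfeet, was at 618, 522 and 106 against 674, 765 and 853 CPM, and Agt, angiotensinogen, at 599, 475 and 55.9 against 326, 342 and 318 CPM. In pools 1 and 2 Gfap and Agt were higher in OL than in any total library, and in pool 3 they were far lower. The mean of pools 1 and 2 was 6.11 times pool 3 for Gfap, 5.36 times for Aqp4 and 9.61 times for Agt in OL, and 0.900, 0.843 and 1.05 times in total RNA. In 13 of the 15 genes the OL library of pool 3 was under 0.5 times both others. The naive OL library of pool 3 was higher than its group instead, with Gfap at 668, 495 and 2713 CPM. Glul, glutamine synthetase, is on the astrocyte list but was enriched like the OL genes, at 9815, 9991 and 10715 CPM in OL and 2084, 1797 and 1699 CPM in total RNA (2.45 ± 0.13, q = 3.5e-12), and pool 3 did not stand apart. Against naive no astrocyte marker passed, with a median difference of 0.19. Without the pool 3 OL libraries of both groups 7 passed as higher, with a median of 1.94. Over all genes 1283 were higher in that setting, in place of 707. Any 1 OL library of pools 1 or 2 left out turned the median of the astrocyte markers below 0.

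**Figure D2:**
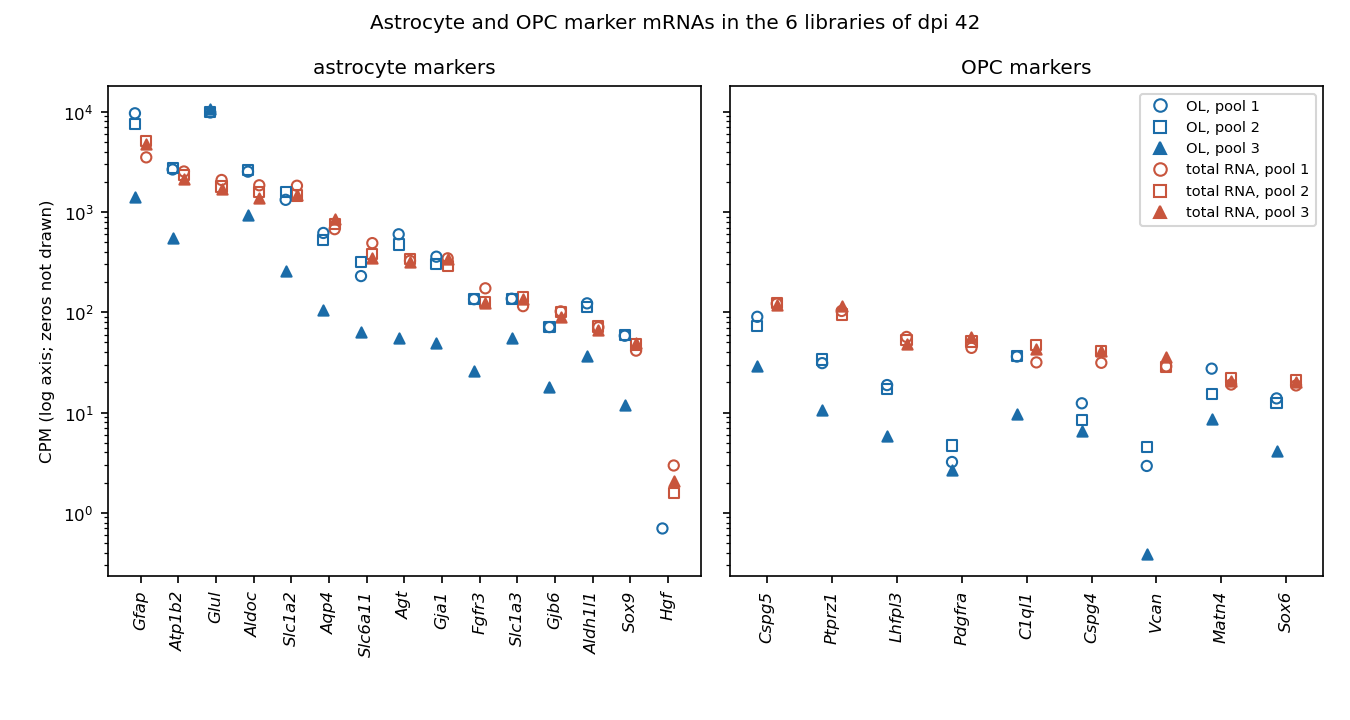
Levels in CPM (log axis) of astrocyte markers (left) and OPC markers (right) in the 3 OL libraries (blue) and 3 total libraries (red) of dpi 42, with 1 symbol per tissue pool and genes ordered by their mean in total RNA. The filled blue triangles of OL pool 3 lie below both other OL libraries in 13 of the 15 astrocyte and all 9 OPC markers, while the total libraries lie close together.

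Neuronal mRNAs had the deepest depletion of the cell type lists with more than trace levels. Of 16 genes, 14 were depleted and none was enriched, with a median of -4.41. Snap25, a protein of vesicle fusion, was at 56.2, 85.7 and 117 CPM in OL and 2449, 1809.8 and 1740.0 CPM in total RNA (-4.54 ± 0.27, q = 1.1e-11, 23.2-fold lower). Slc32a1, the vesicular GABA and glycine transporter, was at 1.89, 2.84 and 4.07 against 184, 171 and 138 CPM (-5.81 ± 0.32). Nefl, the light neurofilament, was at 71.2, 91.9 and 113 against 2480.3, 1387 and 1265 CPM (-4.22 ± 0.26), and its total library of pool 1 was the highest. Uchl1 and Tubb3 did not pass: Uchl1, a deubiquitinase abundant in neurons, was at 612, 519.6 and 602 in OL and 713, 525 and 424 CPM in total RNA (0.061 ± 0.17, q = 0.8), with overlapping groups. Its naive enrichment was -0.84, and the difference of 0.90 passed the call (q = 0.023), but not in 12 of 23 alternatives (0.51 to 0.93, q from 0.051 to 0.19), among them leaving out any dpi 42 OL library. Eno2, neuronal enolase, was still depleted at -3.12 ± 0.17.

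Microglia and phagocyte mRNAs were depleted, although phagocyte markers were more abundant than in naive tissue in both kinds of RNA. Of 12 homeostatic microglia markers, 11 were depleted (median -3.25), where 27.0% of all genes were. Of 14 phagocyte markers tested (Clec7a was not in the table), 12 were depleted (median -3.70). Csf1r, the receptor for colony stimulating factor 1, was at 20.2, 14.1 and 28.7 CPM in OL and 308, 403 and 402 CPM in total RNA (-4.14 ± 0.26). Lyz2, lysozyme, was at 97.9, 77.8 and 129 against 1020.3, 1377 and 1695 CPM (-3.75 ± 0.25, q = 5.9e-11), where naive OL had 0.378, 0.254 and 0.497 CPM. Each of the 14 phagocyte markers rose from naive in OL and in total RNA, where 13.7% and 9.15% of all genes rose. A rise in OL and depletion against total RNA thus stand side by side. Lgals3, galectin 3, was the phagocyte marker closest to equal levels, at 174, 120.2 and 56.8 in OL and 97.6, 145 and 170.0 CPM in total RNA (-0.23 ± 0.40, q = 0.66), with OL pool 3 the lowest. Sall1, a transcription factor of microglia and neural progenitors, was enriched against its list, at 116, 114 and 155 against 53.5, 64.6 and 67.4 CPM (1.05 ± 0.17, q = 2.4e-05), as in naive tissue (1.90).

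Antigen presentation genes were listed by the class of major histocompatibility complex (MHC) that they serve. Of 7 MHC class II genes, 6 were depleted (median -3.10), with Cd74, the invariant chain, at 7.62, 5.34 and 15.2 CPM in OL and 126, 137 and 142 CPM in total RNA (-3.85 ± 0.39). Of 9 class I genes, B2m, Tap1 and Psmb8 were depleted and 6 did not pass, a depleted share of 33.3% near the 27.0% of all genes (median -0.70), and library sizes alone gave 8 depleted. Tap1 did not pass without the OL library of pool 2 or 3 or the total library of pool 3 (q from 0.056 to 0.079). H2-D1, a class I heavy chain, was at 305, 296 and 284 in OL and 346, 379 and 389 CPM in total RNA (-0.33 ± 0.15, q = 0.07), after a rise from naive of 2.41 in OL and 2.33 in total RNA. The difference between the classes was not tested. Lymphocyte markers were at trace levels: 9 genes summed to 1.36, 0.56 and 0.274 CPM in OL and 2.79, 4.06 and 5.58 CPM in total RNA. Cd3e, a subunit of the T cell receptor, had no count in OL and 0.659, 0.83 and 0.455 CPM in total RNA, which makes it at least 5.82-fold lower in OL at a floor of 3 counts per library. Of the 9, 4 were called depleted, and with the tissue pool as a block only 1 was (Cd3e was not, q = 0.076). The list median was -5.13, or -2.34 with the genes that had no OL count set to their bound.

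Vascular and scar mRNAs were depleted as well. Of 16 endothelial and mural markers, 13 were depleted (median -3.53), with Ly6c1 at 0.944, 1.01 and 0.352 CPM in OL and 23.4, 22.2 and 22.8 CPM in total RNA (-4.88 ± 0.40). Kcnj8, a potassium channel of pericytes, was at 4.33, 4.14 and 2.19 in OL and 3.18, 4.32 and 3.93 CPM in total RNA (-0.098 ± 0.79, q = 0.95). Of 13 genes of fibroblasts and scar matrix, 9 were depleted (median -1.74). Col1a1, the main fibrillar collagen chain, was at 32.5, 37.7 and 50 against 145, 252 and 254 CPM (-2.44 ± 0.34) and Dcn, decorin, at 3.04, 4.59 and 12.2 against 105, 149 and 161 CPM (-4.39 ± 0.48). Of 7 ependymal markers, Foxj1, a factor for motile cilia, was enriched at 1.14 ± 0.16 and Ccdc153 was depleted at -3.32 ± 1.25, with a list median of -0.048 and 0.0023 without the OL library of pool 3. Ccdc153 did not pass without the OL library of pool 1 or 3 or the total library of pool 3 (q from 0.076 to 0.09).

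Of 12 Schwann cell markers, 2 were enriched (Pmp22 and Cdh19) and none was depleted. Enriched were thus 16.7%, below the 21.1% of all genes, while the list median was 0.98. Pmp22, peripheral myelin protein 22, was at 741, 777 and 902 against 390.4, 242 and 269 CPM (1.42 ± 0.20, q = 3.0e-06). The summed level of the 12 genes was 2133, 2141 and 2481 CPM in OL and 1226, 618 and 769 CPM in total RNA, highest in pool 1 among the total libraries. With the tissue pool as a block 8 of the 12 were enriched. Cdh19 did not pass without the OL library of pool 3 (0.46, q = 0.21) or the total library of pool 2 (0.72, q = 0.086), nor when only the groups compared were fitted (q = 0.077).

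Cholesterol synthesis is a supply line of myelin. Of 20 enzymes, 13 were enriched and Tm7sf2 was depleted, with a median of 0.98 (0.48 with library sizes alone). Tm7sf2 did not pass with the tissue pool as a block (q = 0.074), nor without the OL library of pool 1 or 2 or the total library of pool 1 (-0.71 to -0.56). In naive tissue 17 were enriched (21.7% of all genes were), with a median of 1.46. The promoters of 19 of the 27 genes on the cholesterol and sterol control lists had an entry in RefSeq. They were searched on both strands for TCACNCCA, a short form of the sterol regulatory element that SREBP factors bind, in the 250 bases before and 50 after the start. It was found for 3 of the 19 genes (15.8%), against 4.97% of all 27025 genes with an entry, and in 3 of their 25 promoters (12.0%), against 4.36% of all 32851. The promoters with a match are shown. Srebf2 encodes a transcription factor of the pathway, Hmgcs1 an early enzyme and Msmo1 a late one. Sequences run 5′ to 3′ on the strand of the gene (RefSeq, GRCm38.p6), and capitals mark the match, which starts at position -137 of Hmgcs1, -177 of Msmo1 and -162 of Srebf2, counted from the start.
Hmgcs1 (chr13:119690101-119690400, plus strand): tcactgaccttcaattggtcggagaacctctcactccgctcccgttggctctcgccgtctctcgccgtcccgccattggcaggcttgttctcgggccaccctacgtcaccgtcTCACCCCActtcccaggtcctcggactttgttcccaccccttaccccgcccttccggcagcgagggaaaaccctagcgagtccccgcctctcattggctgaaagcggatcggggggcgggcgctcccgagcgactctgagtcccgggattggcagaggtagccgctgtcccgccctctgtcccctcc
Msmo1 (chr8:64733529-64733828, minus strand): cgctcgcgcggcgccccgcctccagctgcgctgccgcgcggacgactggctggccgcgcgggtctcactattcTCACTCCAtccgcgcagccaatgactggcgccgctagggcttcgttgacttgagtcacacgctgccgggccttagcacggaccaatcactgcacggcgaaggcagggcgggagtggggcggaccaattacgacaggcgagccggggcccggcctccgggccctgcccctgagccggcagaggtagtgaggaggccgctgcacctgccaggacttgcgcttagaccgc
Srebf2 (chr15:82147019-82147318, plus strand): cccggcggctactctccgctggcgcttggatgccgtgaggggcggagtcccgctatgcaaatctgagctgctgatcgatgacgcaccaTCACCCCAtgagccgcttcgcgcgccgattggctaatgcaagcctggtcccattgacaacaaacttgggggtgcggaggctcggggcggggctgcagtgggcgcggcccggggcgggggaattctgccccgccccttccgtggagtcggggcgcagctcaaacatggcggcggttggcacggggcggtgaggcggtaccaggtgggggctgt
Each of the 3 mRNAs was enriched. Ebp and Dhcr7, whose promoters held no match, had higher ratios than any of them (below). A link between the match and enrichment was not tested. Srebf2 was at 236, 262 and 288 CPM in OL and 170.0, 154 and 146 CPM in total RNA (0.74 ± 0.092, q = 5.8e-07). Hmgcs1, which makes HMG-CoA, was at 317, 449 and 449.8 against 204, 145 and 126 CPM (1.35 ± 0.18, q = 2.1e-06), and Msmo1, a C4-methylsterol oxidase, at 69.6, 110.4 and 133 against 59, 53.3 and 41.7 CPM (1.02 ± 0.17, q = 3.2e-05). In all 3 pool 1 had the lowest OL and the highest total level.

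Among the other steps, Ebp, the sterol isomerase, had the highest ratio of the list (1.91 ± 0.15), at 80.3, 101 and 91.4 against 20.9, 25.7 and 26 CPM. Dhcr7, which makes cholesterol from its direct precursor, was at 88, 111 and 112 against 39.1, 34.7 and 32 CPM (1.55 ± 0.13). Sqle, squalene epoxidase, was enriched at 0.58 ± 0.18 although its groups overlap through pool 1, and it did not pass without the total library of pool 2 (0.43) or 3 (0.41) or the OL library of pool 3 (0.498). Levels of 17 enzymes fell from naive in OL and of 17 in total RNA, where 13% and 7.76% of all genes fell. The medians were -1.48 and -0.90, so the mRNAs were scarcer in both. Enrichment was lower than in naive tissue in 6 enzymes, among them Hmgcs1, Sqle, Cyp51 and Dhcr7, with a median difference of -0.59 over the 20, where 3.34% of all genes had lower enrichment. That count moved with single libraries. It was 0 without both pool 1 libraries, whose titles conflict (median -0.18). Without the total library of pool 1 it was 1, without that of pool 2 it was 2, and without the OL library of pool 3 it was 13. Over all genes 456, 622, 380 and 1488 were lower in these settings, in that order, in place of 573. The enzyme count was 2 with the tissue pool as a block (Cyp51 and Dhcr7) and 0 when only the groups compared were fitted.

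**Figure D3:**
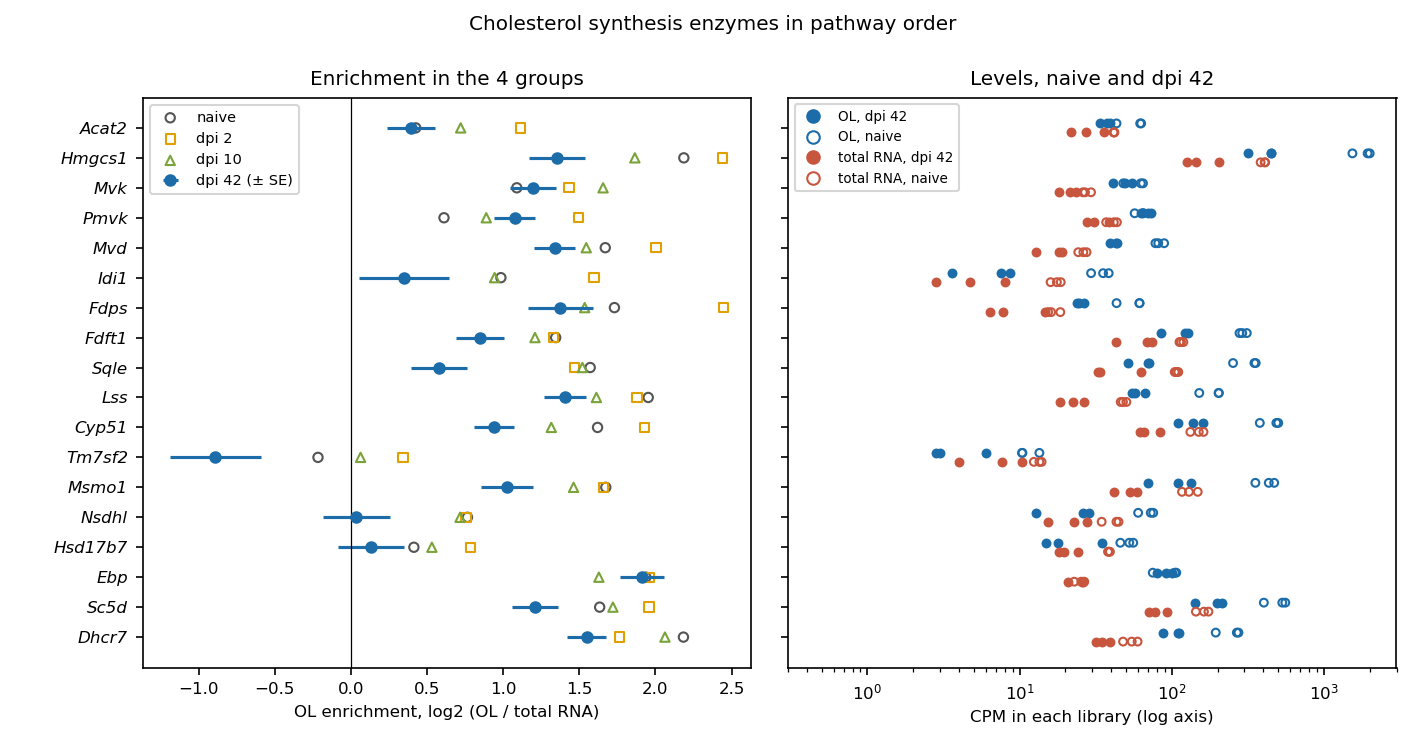
Cholesterol synthesis enzymes (18 of the 20) from the first to the last steps. Left, OL enrichment (log2 of OL over total RNA) in the 4 groups, with SE bars on dpi 42. Right, CPM per library (log axis) in OL (blue) and total RNA (red), open for naive and filled for dpi 42. On dpi 42 the levels of Hmgcs1 and Sqle lie below all naive libraries in both kinds of RNA.

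Sterol control genes were closer to equal levels. Scap, the escort of SREBP, was enriched at 0.94 ± 0.095 like Srebf2, and Stard4, a sterol transfer protein, was depleted at -0.96 ± 0.27, but not without the total library of pool 1 (-0.57, q = 0.071). The list median of 0.32 turns to -0.19 with library sizes alone.

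Of 14 genes for fatty acids and myelin sphingolipids, 13 were enriched, with a median of 1.84. Aspa, which releases acetate from N-acetylaspartate, was at 276, 239 and 314 CPM in OL and 45.2, 36.3 and 43.5 CPM in total RNA (2.73 ± 0.24). Fa2h, the fatty acid 2-hydroxylase of myelin galactolipids, was at 816, 1080.0 and 1370.3 against 183, 199.9 and 174 CPM (2.55 ± 0.16), and Ugt8a, the galactosyltransferase that acts with it, at 437, 603 and 750.2 against 182, 150.3 and 152 CPM (1.89 ± 0.22). OL levels of Fa2h and Ugt8a were highest in pool 3. Acly, ATP citrate lyase, which makes cytosolic acetyl-CoA, was the exception: it was at 118, 155 and 153 in OL and 362, 249 and 259 CPM in total RNA (-1.03 ± 0.13, q = 1.0e-06). In naive tissue Acly was near equal levels (-0.097). Enrichment was lower than in naive tissue in 5 genes, Acly, Scd1, Elovl1, Elovl7 and Cers2, by 0.61 to 0.98 on the log2 scale. Without the pool 3 OL libraries of both groups it was lower in 10, while the count over all genes rose from 573 to 2008. Elovl7 did not pass when any 1 of 8 libraries was left out, and Scd1 without the total library of pool 1 or the naive total library of pool 3.

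Iron handling genes did not share a direction. Of 9 genes, 1 was enriched (11.1%, against 21.1% of all genes) and 3 were depleted (33.3%, against 27.0%). With so few genes these shares are near those of all genes. Tfrc, the transferrin receptor, was enriched at 0.82 ± 0.15, while Ftl1, Slc40a1 and Cp were depleted. Fth1, ferritin heavy chain, was at 4676, 7851 and 8451 in OL and 8495, 9199 and 8274 CPM in total RNA (-0.31 ± 0.18, q = 0.15), with the OL library of pool 1 the lowest. Slc40a1, the iron exporter ferroportin, was at 0.594, 1.01 and 1.37 against 8.66, 9.07 and 7.46 CPM (-3.08 ± 0.32).

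Respiratory chain and ATP synthase mRNAs were near equal levels in OL and total RNA. Of 75 subunit genes, 12 were enriched and 7 depleted, both below the background shares of 21.1% and 27.0%, with a median of 0.12 that turns to -0.38 with library sizes alone and -0.11 with an offset for transcript length and GC content. Without the total library of pool 3 there were 3 enriched and 11 depleted, without the OL library of pool 1 there were 6 enriched, and 3 and 2 were depleted without the OL library of pool 3 and the total library of pool 1. In naive tissue none was enriched and 47 were depleted (median -0.69). Sdhc, a membrane anchor of complex II, had the highest ratio (0.68 ± 0.12), at 224, 202 and 168 CPM in OL and 135, 124 and 111 CPM in total RNA. Cox4i1, a subunit of cytochrome c oxidase, was at 659, 552 and 486 against 469, 369 and 329 CPM (0.54 ± 0.13), from a naive enrichment of -0.51; it lay under the limit of 0.5 without the OL library of pool 1 or the total library of pool 3 (0.43 in both), with DESeq2 size factors or the DESeq2 Wald test (0.46 in both) and with the length and GC offset (0.38). Ndufb2, an accessory subunit of complex I, was at 24.7, 31.6 and 18.7 against 50.6, 37.7 and 39.7 CPM and the most depleted of those called (-0.77 ± 0.17). Atp5b, the catalytic subunit of ATP synthase, was at 771, 764 and 652 in OL and 1164, 947 and 864 CPM in total RNA (-0.44 ± 0.13, q = 0.0082), which does not reach the limit of 0.5 although the groups do not overlap.

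Against naive, enrichment was higher in 55 of the 75 genes and lower in none (median difference 0.76), where 4.12% of all genes were higher. The median enrichment was 0.15 on dpi 2 and -0.13 on dpi 10. None of the 75 differed from dpi 2 or dpi 10 by the call, but few of all genes did (0.623% higher and 0.751% lower against dpi 2). From naive, 44 genes rose in OL (58.7%, against 13.7% of all genes) and none fell (median 0.60). In total RNA none rose and 7 fell (9.33%, near the 7.76% of all genes), with a median of -0.21. The summed level was 11459.8, 10856 and 9067 CPM in dpi 42 OL and 7745, 8011 and 9347 CPM in naive OL, and the lowest dpi 42 value lies below the highest naive one. In 69 of the 75 genes the OL library of pool 3 was the lowest of its group on dpi 42. The count of 55 fell to 23 with the length and GC offset, 24 without the OL library of pool 1 and 26 without that of pool 2. It was 23 and 25 without the naive OL libraries of pools 1 and 2, and 35 when only the groups compared were fitted. The direction was the same in each. Over all genes the 707 higher became 531, 241, 348, 301, 256 and 602 in these settings, in that order. Leaving out those OL libraries moved the median of all genes by -0.16 to -0.13. Without the pool 3 OL libraries of both groups 60 of the 75 were higher, and 1283 over all genes.

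**Figure D4:**
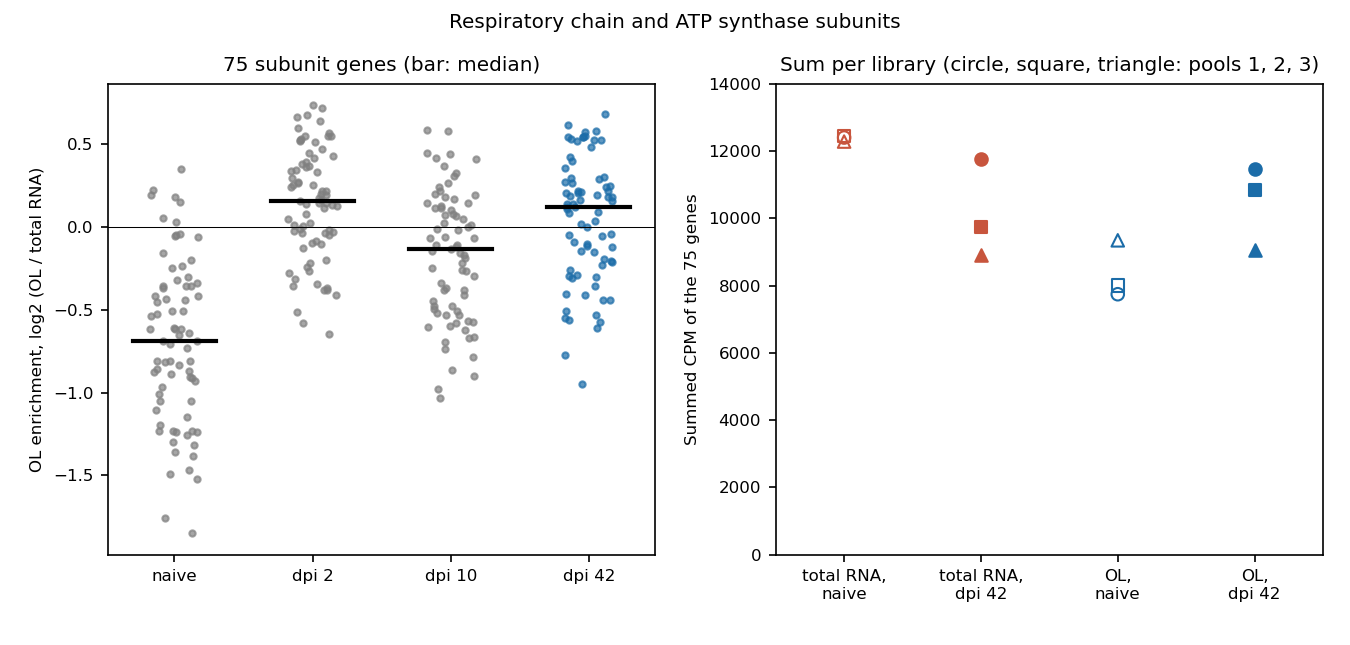
Left, OL enrichment (log2) of the 75 respiratory chain and ATP synthase genes in the 4 groups, with bars at the medians. Right, their summed CPM in each library, open for naive and filled for dpi 42. The medians are -0.69 in naive tissue, 0.15 on dpi 2, -0.13 on dpi 10 and 0.12 on dpi 42. In the sums, OL pool 3 of dpi 42 lies below a naive OL library.

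Of 77 ribosomal protein genes, none was enriched and 25 were depleted (32.5%, against 27.0% of all genes), with a median of -0.34. The length and GC offset gave 39 depleted and library sizes alone gave 62. In naive tissue 42 were depleted.

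The 12 injury response genes were chosen by the study on these samples, so their direction is no independent evidence. Of these, 8 were enriched on dpi 42 and 5 in naive tissue (4 were depleted there), and 6 had higher enrichment than in naive tissue. Klk8, a secreted serine protease, was at 40.6, 33.3 and 46.9 CPM in OL and 3.84, 6.5 and 7.97 CPM in total RNA (2.72 ± 0.36, q = 1.5e-06), where naive OL held 0.798, 0.592 and 0 CPM. Serpina3n, a secreted protease inhibitor, was at 1752, 1817 and 2099 against 416, 628 and 576 CPM (1.81 ± 0.19), from near equal levels in naive tissue (0.082). S100a1, a calcium-binding protein, was at 978, 767 and 739.9 against 156, 172 and 167 CPM (2.33 ± 0.12). Klk8, Serpina3n and S100a1 do not overlap between OL and total RNA. Steap3, a metalloreductase, was at 24.5, 22.8 and 20.7 in OL and 22.3, 22.3 and 22.4 CPM in total RNA (0.021 ± 0.43, q = 1), and Serpina3c had at most 2.15 CPM in any library of dpi 42.

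Over all genes, enrichment was higher than in naive tissue in 707 mRNAs (4.12%) and lower in 573 (3.34%). The split depends on the scaling: 55.2% were higher, but TMM with a total RNA library as reference, which moved the median by -0.13, gave 403 higher and 947 lower (29.9% higher). Of the 707, 474 had been depleted in naive tissue, where 28.6% of all genes were, and 204 were depleted on dpi 42, where 27.0% were. Their OL level rose by the call in 491, and total RNA rose in 40 and fell in 88. Over all genes, 13.7% rose and 13% fell from naive in OL, and 9.15% rose and 7.76% fell in total RNA. Of the 573, 431 had been enriched in naive tissue, where 21.7% of all genes were, and 212 were enriched on dpi 42, where 21.1% were. Total RNA rose in 226 of them, and OL fell in 298. A difference in enrichment is the OL change less the total RNA change. The 707 and 573 were thus chosen on the values counted here, and these counts are no separate evidence.

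Among the 6 genes with higher enrichment and the smallest p were Fxyd7, Plvap, Slc9a3r2, Snx10 and Srxn1. In each of these OL rose from naive and total RNA did not rise. Fxyd7, a regulator of the sodium pump, was at 119.8, 106 and 128 CPM in OL and 91.4, 75.5 and 69.2 CPM in total RNA on dpi 42 (0.58 ± 0.13, q = 7.5e-04), and at 5.88, 6.18 and 6.43 against 67.6, 70.8 and 77 CPM in naive tissue (-3.54). It went from depleted to just past the limit of enrichment (0.499 without the total library of pool 3), a difference of 4.12 ± 0.20 (q = 3.5e-11). Plvap, known from fenestrated endothelium, was at 10.5, 12.2 and 12.1 in OL and 14.1, 12.3 and 10.5 CPM in total RNA (-0.083 ± 0.26), against -4.23 in naive tissue. Srxn1, sulfiredoxin, was at -0.50, against -1.65 in naive tissue.

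The 6 genes with lower enrichment were Man2b1, Grn, Ctsz, Ctsd, Unc93b1 and Ctsa. Man2b1, Ctsz, Ctsd and Ctsa encode lysosomal enzymes, Grn a lysosomal growth factor and Unc93b1 a carrier of endosomal receptors. Grn, progranulin, was at 157, 156 and 196 CPM in OL and 340.0, 485 and 458 CPM in total RNA (-1.33 ± 0.13, q = 2.6e-08), and at 114, 117 and 112 against 50.4, 44.9 and 43.9 CPM in naive tissue (1.30). It went from enriched to depleted (-2.64 ± 0.19, q = 3.0e-08), with total RNA up by 3.20 and OL by 0.57. Ctsd, cathepsin D, was at 610.0, 552 and 557 in OL and 2081, 3142 and 2742 CPM in total RNA (-2.21 ± 0.13), up by 3.27 in total RNA and 0.78 in OL. Man2b1, an alpha-mannosidase, went from 0.67 to -1.79 with OL at 51.7, 52.5 and 51.3 CPM, -0.45 from naive. In the 6 genes total RNA rose by 1.76 to 3.41, and microglia and phagocyte markers rose in the same total libraries. The 14 phagocyte markers summed to 16834, 23305 and 24436 CPM on dpi 42, most of it Apoe, and to 2161, 2099 and 2067 CPM in naive tissue. The median rise of the 14 markers in total RNA was 4.40. The part of microglia and phagocyte markers in these differences was not tested.

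**Figure D5:**
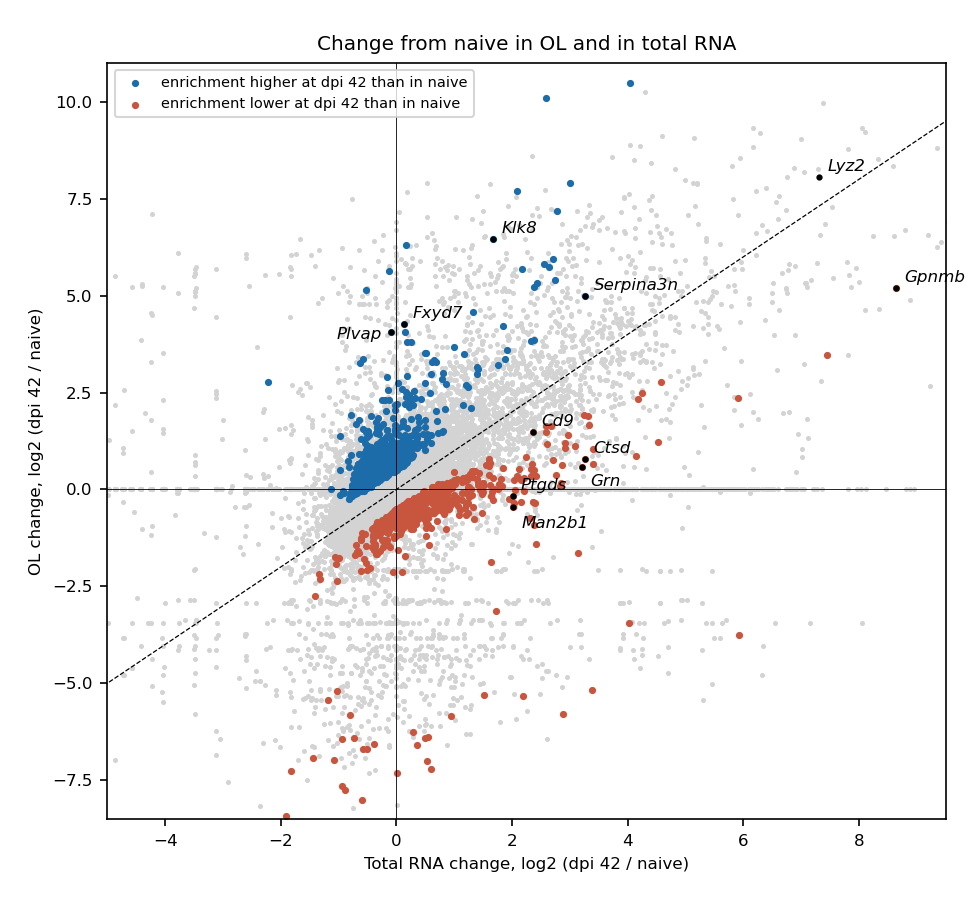
Each point is a gene; the horizontal axis is the change from naive to dpi 42 in total RNA (log2), the vertical axis that in OL (log2), and the dashed line marks equal changes. Blue and red points had higher and lower enrichment on dpi 42 than in naive tissue by the call; 78 genes lie outside the axes, and rows of grey points are genes with few counts. Fxyd7 rose by 4.26 in OL at 0.13 in total RNA, whereas Grn rose by 3.20 in total RNA and 0.57 in OL.

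Against dpi 10, enrichment on dpi 42 differed in 11 genes by the call, 1 higher (0.00583%) and 10 lower (0.0583%), while 2004 genes had an unadjusted p under 0.05. The higher one was Gal, galanin, with OL at 0.664, 0.373 and 0.783 CPM on dpi 42. The 10 lower ones, named after their values were seen, were Esyt1, Jph3, Faxc, Pde3b, Gpr165, Cmip, Eea1, Pcdh18, Kcna1 and Trhde. Gpr165, Pcdh18 and Trhde had no OL count on dpi 42. Gpr165 was at 7.82, 10.5 and 8.08 CPM in total RNA, at least 79.1-fold higher than OL at a floor of 3 counts per library, and Pcdh18 at 5.24, 5.47 and 6.52 CPM, at least 51.5-fold higher. Eea1, an early endosome tether, was at 19.9, 19.4 and 26.9 in OL and 41.8, 40.8 and 47.2 CPM in total RNA (-0.97 ± 0.12), from -0.049 on dpi 10. Against dpi 2, 107 genes had higher (0.623%) and 129 lower (0.751%) enrichment. The comparisons share the dpi 42 libraries, so their counts are not independent.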

How the data were processed

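RNA was extracted from 10% of each cleared lysate (total RNA) and from its anti-HA precipitate (OL). The authors checked reads with FastQC 0.10.1, aligned them to mm10 (GRCm38.p6) with STAR, and deposited raw counts per gene from HTSeq 0.10.0. Library kinds were taken from the names of the count columns, because titles and descriptions conflict for both pool 1 libraries of dpi 42. Column names also give the tissue of each library, so OL and total RNA of 1 pool come from the same animals. Deviations from the group means correlated across genes within a pool with r from 0.13 to 0.24 in naive tissue and from -0.042 to 0.0091 on dpi 42. Between different pools of dpi 42 r ran from -0.045 to 0.034, so the levels do not show the pairing there.

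The deposited counts were fitted with edgeR 4.0.16 (R 4.3.3): 17167 genes counted 10 times or more over all libraries, TMM scaling, 8 groups sharing 1 dispersion trend, the quasi-likelihood test and no block. Pools were separate animals, 2 mice in each. DESeq2 1.42.0, other scalings and filters, the pool as a block, an offset for exon length and GC content, and leaving out libraries served as alternatives. CPM use TMM-scaled library sizes. Named were the 10 genes with the smallest p in each direction past log2 of 2, the 10 highest per kb of exon in OL, the 6 with the smallest p in each direction against naive, and examples and exceptions of 24 fixed lists (410 of 412 genes tested). Some genes that these rules name are not reported here. The genes, lists and comparisons were chosen with earlier results of these data known. Gene positions and lengths are from GENCODE M21. The script was tested on simulated data with known changes in dpi 42 OL. For log2 changes of 1 and 2 it recovered 45% and 85% in enrichment. In the difference from naive it recovered 33% and 73%, so a gene that did not pass may still have changed. Symbols sharing reads with close paralogs (H2 and ribosomal protein genes) are uncertain.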

Additional observations from a re-analysis of the deposited data

Results flagged for a closer look

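OL enrichment differed between dpi 42 and naive tissue by the test of the difference itself (an interaction term in the edgeR fit) in 707 mRNAs that were higher and 573 that were lower on dpi 42. Among those named, the difference in enrichment was 4.12 for Fxyd7, 4.15 for Plvap, 1.70 for Slc9a3r2, 1.85 for Snx10 and 1.15 for Srxn1 on the log2 scale. It was -2.46 for Man2b1, -2.64 for Grn, -2.37 for Ctsz, -2.49 for Ctsd, -2.25 for Unc93b1 and -1.73 for Ctsa. Single outlying libraries were not tested within the groups of 3.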

How the results depend on the processing

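Of the 17167 genes, between 3289 and 3732 were enriched and between 4201 and 5034 depleted on dpi 42 under DESeq2 size factors, the DESeq2 Wald test, the tissue pool as a block, the offset for length and GC content and without both pool 1 libraries. Library sizes alone, the setting that moved the counts most, gave 1688 enriched, and 157 past log2 of 2. Leaving out 1 library at a time gave 3464 to 3677 enriched and 4265 to 4371 depleted, with 338 to 416 and 2598 to 2690 past log2 of 2. The counts against naive were less firm. TMM with a total RNA library as reference, chosen after seeing the data, gave 403 higher and 947 lower, and without the pool 3 OL libraries of both groups, also chosen then, 1283 were higher and 2008 lower. Leaving out 1 library at a time gave 241 to 829 higher and 368 to 1488 lower, and leaving out any OL library of either group moved the median by -0.18 to -0.11. With the tissue pool as a block there were 698 higher and 573 lower, and the block changed no call of a named gene but those given above. The cause of these moves was not tested. Of 132 enrichment values of named mRNAs, 93 kept direction and call under every alternative run, and of 29 differences from naive 20 did.

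With library sizes alone, enrichment changed sign in Agt (-0.29), Ctsa (-0.48), Epb41l3 (-0.37), Gfap (-0.013), Ptgds (-0.099), Steap3 (-0.48), Uchl1 (-0.43) and Zfp488 (-0.24). With DESeq2 size factors it did so in Ctsa (-0.051), Steap3 (-0.057) and Uchl1 (-0.014). The DESeq2 Wald test turned Ctsa (-0.051), Steap3 (-0.057) and Uchl1 (-0.014). The tissue pool block turned Agt (-0.29). The length and GC offset turned Agt (-0.047) and Uchl1 (-0.13). Without both pool 1 libraries it turned in Agt (-0.31), Ctsa (-0.071), Gfap (-0.14), Plvap (0.098) and Steap3 (-0.040). Without the pool 3 OL libraries of dpi 42 and naive it turned in Ctsa (-0.081), Epb41l3 (-0.038), Kcnj8 (0.14), Lgals3 (0.079), Matn4 (0.030), Serpina3c (-0.24) and Zfp488 (-0.050). Leaving out 1 library at a time, enrichment ran from -0.31 to 0.69 for Agt, -0.093 to 0.13 for Ctsa, -0.038 to 0.30 for Epb41l3, -0.26 to 0.14 for Kcnj8, -0.63 to 0.079 for Lgals3, -0.78 to 0.030 for Matn4, -0.19 to 0.029 for Plvap, -0.24 to 1.27 for Serpina3c, -0.023 to 0.066 for Steap3, -0.098 to 0.28 for Uchl1 and -0.050 to 0.52 for Zfp488. These mRNAs were not called on dpi 42.

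Depth limits the calls of the rarest mRNAs: 665 depleted mRNAs had at most 3 counts in every OL library and 21 enriched ones at most 3 in every total library.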
